A study of Mus musculus with 19 samples.

Results

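The cytosolic ribosomal protein genes were followed in mouse ventricle after loss of Mpc1, a subunit of the mitochondrial pyruvate carrier. Members were the protein-coding genes with the symbol Rpl or Rps, a number and an optional a, x, l or l-number ending, plus Rplp0, Rplp1, Rplp2 and Rpsa. Rps6k kinases and names with -ps were left out. This gave 82 of the 55536 genes in the files, 51 of the large (60S) and 31 of the small (40S) subunit. Total RNA, depleted of ribosomal RNA, came from ventricles of wild-type mice (WT) and of mice with an inducible, heart-specific Mpc1 knockout (KO), 8 or 16 weeks after the knockout was induced in the adult. The groups were WT-8 (n = 5 libraries), KO-8 (n = 4), WT-16 (n = 5) and KO-16 (n = 5). The labels used here give neither the driver of the recombinase, the strain nor the age, and do not say what the wild-type mice carried or were given. Nor do they tie the libraries to individual animals, and p-values here measure the spread between libraries.

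Each cytosolic ribosome joins a small subunit, which reads the mRNA, to a large subunit, which forms the peptide bonds. With few exceptions each of its proteins is present as a single copy, and cells make the proteins in matched amounts. Their mRNAs are among the best-known targets of growth control through mTOR, which acts on a run of pyrimidines at the 5′ end of these messages (the TOP motif). Striated muscle adds a switch of its own: Rpl3l, a paralog of Rpl3 made mainly in heart and skeletal muscle, takes the place of the general protein Rpl3 near the peptidyl transferase centre in mature fibres.

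Rpl3 (GRCm38 chromosome 15, 80077791 to 80091868, minus strand) and Rpl3l (chromosome 17, 24727820 to 24736143, plus strand) can be told apart at the level of the counts. Their coding sequences, taken from the GENCODE M21 transcripts, were identical at 896 of 1206 aligned bases (74.3%), and none of the 1171 windows of 51 bases in the Rpl3l coding sequence, the read length used here, occurred in that of Rpl3. The opening 90 coding bases and the 90 bases with the most differences (coding bases 856 to 945 in each gene) are shown. They were chosen because Rpl3 was the 1 member called different between KO and WT at 16 weeks, and Rpl3l is its paralog. Capitals mark the bases at which the paralogs differ, 21 in the first stretch and 34 in the second.
Rpl3, coding bases 1 to 90: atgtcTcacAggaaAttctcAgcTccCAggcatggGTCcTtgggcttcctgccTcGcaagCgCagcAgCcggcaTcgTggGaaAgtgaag
Rpl3l, coding bases 1 to 90: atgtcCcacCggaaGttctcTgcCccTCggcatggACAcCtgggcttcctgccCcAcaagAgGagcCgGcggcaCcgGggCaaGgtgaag
Rpl3, coding bases 856 to 945: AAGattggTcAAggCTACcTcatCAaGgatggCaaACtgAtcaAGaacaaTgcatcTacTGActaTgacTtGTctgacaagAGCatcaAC
Rpl3l, coding bases 856 to 945: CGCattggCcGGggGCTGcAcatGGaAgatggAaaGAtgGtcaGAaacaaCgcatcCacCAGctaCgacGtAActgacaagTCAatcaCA

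Most members share sequence with other genes. Over the members, a median of 49.1% of the 51-base windows of the main transcript (range 0% to 98.6%) also occurred in a transcript of another gene, on either strand, and 18 members were above 80%. Rpl3l and Rpl39l were among those with no such window. Rpl3 had 85.5%, shared with 26 other genes. The command in the file headers holds no option to count reads that map to several places, so the counts of a member with many shared windows come from part of its transcript. Levels between genes are for this reason harder to compare than one gene between samples. Counts on the 300 genes with a ribosomal protein -ps name stood at 0.565 to 0.682 per 100 member counts at 8 weeks and 0.995 to 1.29 per 100 at 16 weeks.

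The pyrimidine tract was looked for at the starts of RefSeq transcripts (GRCm38.p6), as a C within 5 bases of the start, on the transcribed strand, followed by at least 4 bases that are each C or T. It was found for 29 of the 62 members in the table (46.8%) and for 5718 of 27025 genes in all (21.2%). The 4 starts below, each printed from 15 bases before to 14 bases after the first base, are those of the member with the smallest adjusted p at 16 weeks after Rpl3 (Rps18), of a member that was much lower in the later wild-type libraries (Rps27), of one that was higher there (Rpl4), and of Rpl3l at its upstream start. Capitals mark the tract, and the last 2 sequences have none by this definition. These 4 starts are examples and do not stand for a direction. Rpl13 and Rps19, also lower in WT-16 than in WT-8, had no tract, and Rps6, higher there, had one. Rpl3, Rplp1, Rps14 and Rps29 were among the members with no start to search. A link between the tract and the fold changes was not tested.
Rps18, chr17:33955651-33955680, minus: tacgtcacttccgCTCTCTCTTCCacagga
Rps27, chr3:90213634-90213663, minus: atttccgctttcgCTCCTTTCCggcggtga
Rpl4, chr9:64173372-64173401, plus: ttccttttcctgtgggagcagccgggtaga
Rpl3l, chr17:24727811-24727840, plus: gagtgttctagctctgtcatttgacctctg

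Library totals ran from 16.5 to 27.5 M (mega) counts at 8 weeks and from 8.63 to 26.9 M at 16 weeks. The 82 members took 98325 to 148159 counts per library at 8 weeks. At 16 weeks they took 12499 to 82770 (WT) and 18089 to 156058 (KO). Residual 18S ribosomal RNA, read as the share of counts on CT010467.1, a gene model that overlaps it, was at most 0.0666% at 8 weeks. At 16 weeks it came to 39.1, 25.2, 6.88, 23.2 and 29.7% in WT-16 replicates 1 to 5 and 12.7, 1.71, 5.66, 29.96 and 26.1% in KO-16 replicates 1 to 5. Mitochondrial genes took 20.6 to 27.2% at 8 weeks, 29.97 to 41.6% (WT-16) and 27.9 to 38.2% (KO-16). Mpc1 itself was at 61.7 to 83.9 CPM (counts scaled by library total and TMM factor) in the WT libraries of both times and at 8.42 to 26.2 CPM in the KO libraries, the highest being replicate 1 of KO-16. Cardiomyocyte markers were present in every group, at a summed 86749 CPM or more. By sex-linked transcripts, 2 libraries were male, WT-16 replicate 5 and KO-16 replicate 4.

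Summed over the 82 genes, ribosomal protein messages made up a smaller share of the nuclear protein-coding counts in WT-16 than in WT-8, and KO-16 lay between. The share was 0.867, 0.794, 0.813, 0.805 and 0.737% in WT-8 and 0.855, 0.810, 0.860 and 0.722% in KO-8. At 16 weeks it was 0.560, 0.576, 0.704, 0.588 and 0.499% in WT and 0.649, 0.858, 0.673, 0.691 and 0.562% in KO. The lowest 8-week library, at 0.722%, lay above every WT-16 library and above 4 of the 5 KO-16 libraries. Among the 16-week libraries the highest share, 0.858%, belonged to the library with the least 18S, KO-16 replicate 2. KO-16 replicate 4 did not follow that order: it had 29.96% 18S and a ribosomal protein share of 0.691%, against 0.499% in WT-16 replicate 5 at 29.7% 18S. Group means ± SD were 0.803 ± 0.0465 (WT-8), 0.812 ± 0.0637 (KO-8), 0.585 ± 0.0748 (WT-16) and 0.687 ± 0.108 (KO-16). No test was made on this sum.

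**Figure D1:**
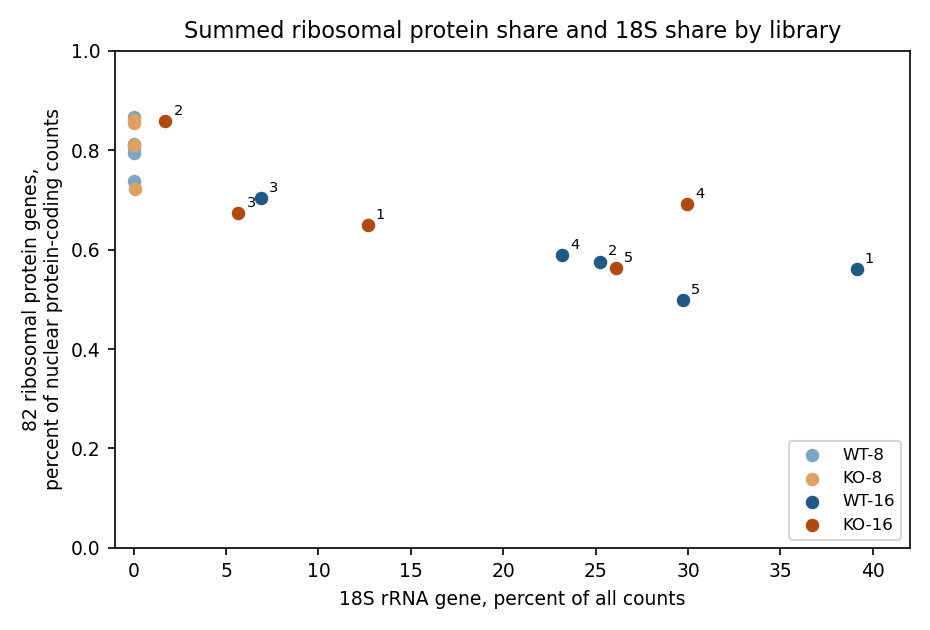
Summed share of the 82 ribosomal protein genes in nuclear protein-coding counts (y axis, percent) against the share of the 18S rRNA gene in all counts (x axis, percent), 1 point per library, with replicate numbers at 16 weeks. The 8-week libraries sit at 0.722 to 0.867% with almost no 18S, and the 16-week libraries spread from 0.499 to 0.858% over 1.71 to 39.1% 18S.

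Levels between members were compared per kb of the merged exons given in the files. Over all 19 libraries Rpl4 was highest at 137 CPM per kb, followed by Rps15 (108) and Rplp1 (107). The lowest were Rpl22l1 (1.07), Rpl39l (0.0473) and Rpl10l, which had no count in any library. Rpl39l had 17 counts in all, and both it and Rpl10l, paralogs best known from testis, failed the filter on low counts. The other 80 members were tested in each comparison. Per kb of the main transcript instead, Rpl4 stood at 179, Rps2 at 178 and Rps15 at 136 CPM per kb, so the order near the top depends on the length taken.

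The order of Rpl3 and Rpl3l depends on it even more. In WT-8, Rpl3l stood at 46.7 ± 2.62 CPM per kb of merged exons and Rpl3 at 9.67 ± 0.98 (SD, n = 5). Per kb of main transcript the levels were 55.9 and 22.7. Per kb of those windows of the transcript that no other gene shares, they were 58.0 for Rpl3l and 163 for Rpl3, which turns the order round. Such windows have the length of a single read, while read pairs were counted, so the value of 163 may be too high. Each gene was therefore compared with itself between groups.

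At 16 weeks Rpl3 was higher in the KO than in WT, and Rpl3l had its lowest values in the KO libraries with the most Rpl3. Rpl3 was at 17.5, 19.5, 31.1, 20.7 and 20.2 CPM in WT-16 replicates 1 to 5 and at 26.2, 55.6, 47.7, 62.4 and 29.7 CPM in KO-16 replicates 1 to 5. Replicates 2, 3 and 4 of KO-16 were above every WT-16 library, while replicates 1 and 5 lay below the highest WT-16 library, replicate 3. Rpl3 was 2.01-fold higher, a log2 fold change of 1.01 (SE 0.24, edgeR quasi-likelihood adjusted p = 0.0423), with a mean of 21.8 ± 5.36 CPM in WT and 44.3 ± 15.9 in KO (SD, n = 5 each). Rpl3l was at 73.3, 60.02, 56.7, 58.5 and 56.8 CPM in WT-16 and at 65.5, 26.1, 19.7, 15.4 and 39.6 CPM in KO-16. Replicates 2 to 5 of KO-16 were below every WT-16 library and replicate 1 was above 4 of them. Its log2 fold change was -0.87 (SE 0.31, edgeR adjusted p = 0.109), with means of 61.1 ± 6.99 and 33.2 ± 20.2 CPM, and did not pass the threshold of 0.05.

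Counting both genes together shows how the libraries divide. Rpl3 made up 19.2, 24.5, 35.4, 26.1 and 26.3% of the counts of the pair in WT-16 and 28.6, 68.1, 70.8, 80.2 and 42.9% in KO-16. At 8 weeks its share was 25.2 to 30.8% in WT and 29.6 to 38.4% in KO. The counts behind the WT-16 values were low, 69 to 676 for Rpl3 and 247 to 1232 for Rpl3l. The 3 KO-16 libraries with more counts on Rpl3 than on Rpl3l had 1.71, 5.66 and 29.96% 18S, and the other 2 had 12.7 and 26.1%. These counts are not corrected for length, on which the order of the 2 genes depends. Mpc1 was at 26.2, 9.04, 9.26, 15.1 and 16.0 CPM in KO-16 replicates 1 to 5 and at 8.42 to 11.99 CPM in the KO-8 libraries. The part of 18S share and of residual Mpc1 in this division was not tested.

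**Figure D2:**
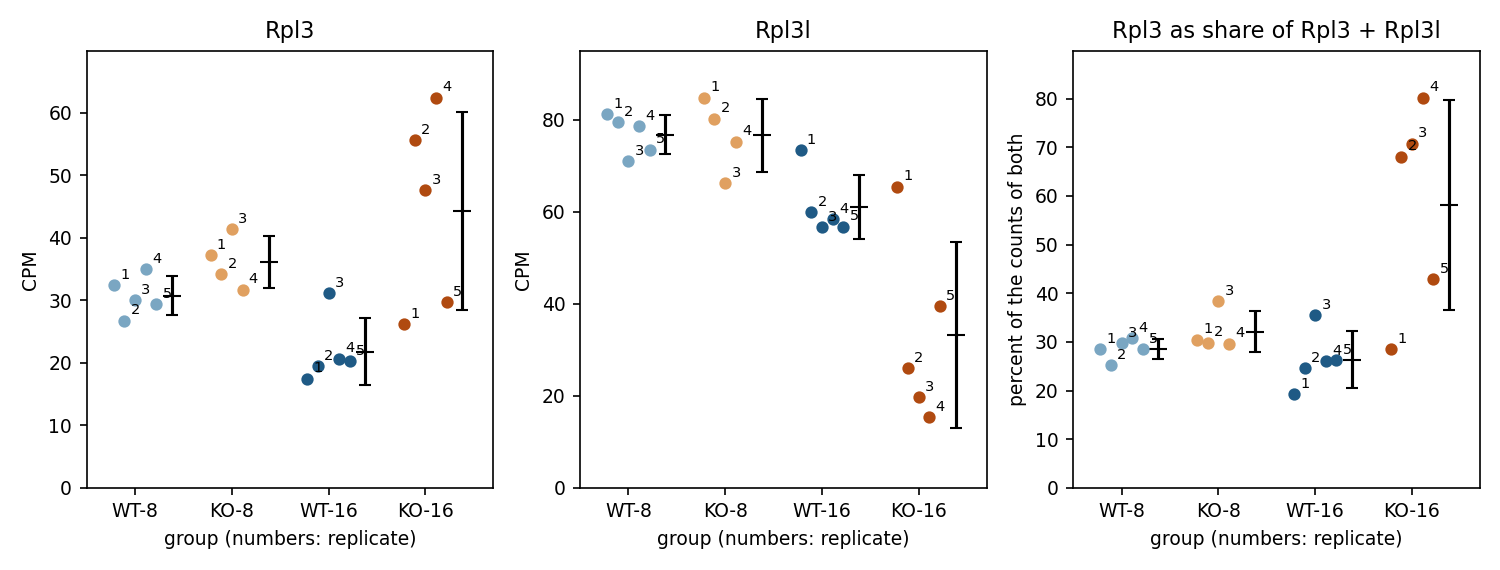
CPM of Rpl3 (left) and Rpl3l (middle) and the percent of the counts of both that fell on Rpl3 (right), 1 point per library with its replicate number, and beside each group the mean with the SD (n = 5, 4 in KO-8). Replicates 2, 3 and 4 of KO-16 hold 68.1 to 80.2% Rpl3, and no WT-16 library holds more than 35.4%.

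The Rpl3 call rested on few libraries. With 1 library left out at a time its log2 fold change stayed between 0.86 and 1.19 and its adjusted p ranged from 0.00418 to 0.114, above 0.05 without any one of WT-16 replicates 1, 2, 4 and 5 or KO-16 replicates 2, 3 and 4. It was 0.90 (adjusted p = 0.0707) with limma-voom, 0.92 (0.115) with the 18S share as a covariate, 0.67 (0.253) with the mitochondrial share as a covariate, 0.83 (0.203) without the male libraries, and 1.26 (0.0224) in the libraries with over 20% 18S alone. In the other 12 of 17 settings it passed as well, with values of 0.98 to 1.115. Rpl3l kept its sign in each alternative and passed with DESeq2 (log2 fold change -0.88, adjusted p = 0.0494), without a filter (-0.84, 0.0447), with voom quality weights (-1.31, 0.00446), in the fit to all 19 libraries (-0.87, 0.0188) and without KO-16 replicate 1 (-1.28, 0.00296).

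Beside Rpl3, none of the 80 members tested passed at 16 weeks, a share of 1 in 80 against 2.83% of all genes tested (1.88% higher, 0.945% lower). Most values were nonetheless on the higher side: 72 of 80 log2 fold changes were above 0 (90%, against 51.1% of all genes tested), with a median of 0.24 against 0.009 for all genes. The median was 0.23 for the 49 large-subunit and 0.25 for the 31 small-subunit genes. The 12 members with an unadjusted p under 0.05 in edgeR compare with 3198 of 12597 genes. Rps18, a protein of the small-subunit head (chromosome 17, 33951999 to 33956001), was the member nearest to passing after Rpl3 and the one whose groups did not overlap, where 2.14% of all genes tested were separated in that direction and 2.52% in the other. It was at 10.4, 13.02, 14.6, 12.99 and 9.43 CPM in WT-16 and at 16.7, 25.3, 21.1, 17.3 and 15.6 CPM in KO-16 (log2 fold change 0.66, SE 0.17, adjusted p = 0.0512). It passed in 7 of 17 other settings, with log2 fold changes of 0.63 to 0.68.

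The next members by adjusted p on the higher side were Rps7 (log2 fold change 0.39, adjusted p = 0.115), Rplp1 (0.81, 0.116), Rpl29 (0.59, 0.139) and Rps14 (0.82, 0.165). On the lower side, after Rpl3l, the values were small: Rpl4 -0.12 (adjusted p = 0.512), Rpl21 -0.09 (0.594), Rps4x -0.15 (0.631), Rps20 -0.08 (0.759) and Rps6 -0.06 (0.801). Apart from Rpl3l, therefore, no member had a log2 fold change below -0.15.

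**Figure D3:**
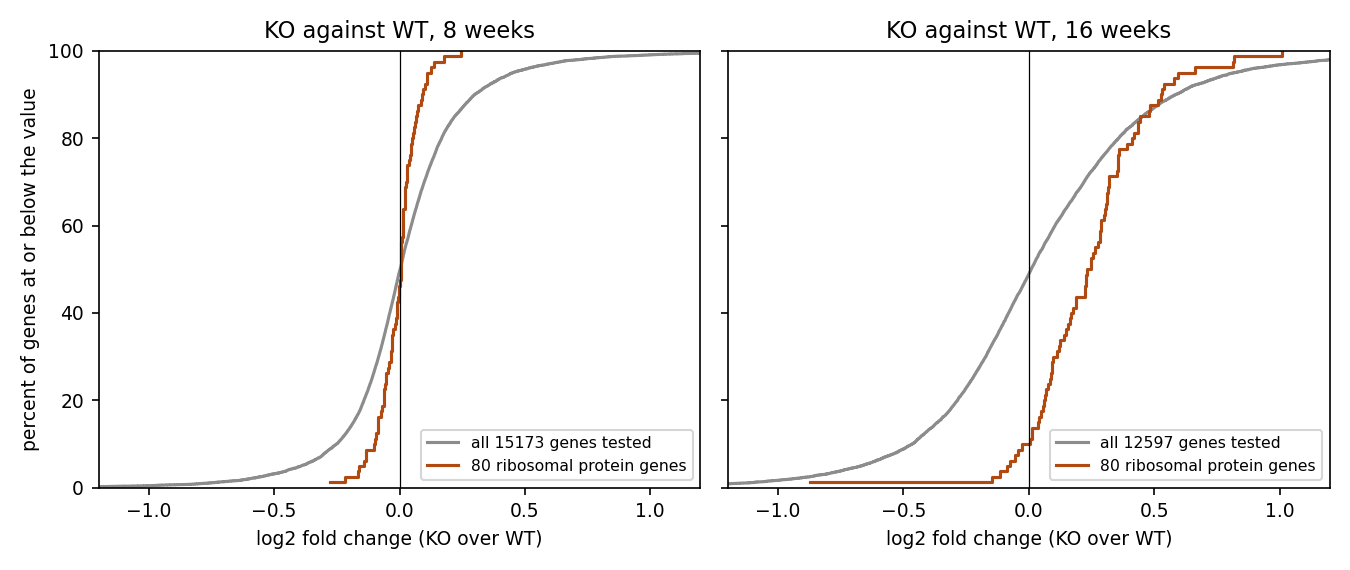
Cumulative distribution of log2 fold changes, KO over WT, at 8 weeks (left) and 16 weeks (right), for the 80 ribosomal protein genes tested and for all genes tested (15173 and 12597). At 16 weeks the curve of the ribosomal protein genes lies to the right (median 0.24), and at 8 weeks it crosses the middle at 0.004.

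Several library measures moved with the 16-week values. KO-16 held less 18S (mean 15.2%, against 24.8% in WT-16) and a smaller mitochondrial share (32.3 against 37.0%). With the 18S share as a covariate, 59 of 80 members were above 0 with a median of 0.10. None passed, against 0.222% of all genes tested. In the libraries with over 20% 18S alone (4 WT-16, 2 KO-16) 64 were above 0 with a median of 0.16. There 1 passed, against 1.94% of all genes tested. With the mitochondrial share as a covariate, 49 were above 0 with a median of 0.04, and none passed, against 0.0714% of all genes tested. Without KO-16 replicate 2, the library with the least 18S, 60 were above 0 with a median of 0.11. The count of members passing was 11 of 80 without KO-16 replicate 5, where 14.2% of all genes passed, 3 without KO-16 replicate 1 (13.4% of all genes), 1 without WT-16 replicate 3 (1.7%) and 0 without any other library (0.221 to 0.446%).

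Markers of other cells moved too. Of 10 fibroblast markers 9 were tested and 5 passed as higher in KO-16, with sums of 702 to 1045 CPM (WT-16) and 1016 to 2197 CPM (KO-16). Of 10 endothelial markers 1 and of 9 smooth muscle and pericyte markers 1 also passed as higher. The 10 cardiomyocyte markers summed to 115800 to 131814 CPM (WT-16) and 86749 to 124199 CPM (KO-16), and none passed. The 10 macrophage markers stood at 126 to 168 and 141 to 208 CPM, the 10 endothelial markers at 2042 to 2767 and 1742 to 2149, the 9 smooth muscle and pericyte markers at 1314 to 1594 and 1006 to 1466, the 10 lymphocyte markers at 15.2 to 21.6 and 14.1 to 23.1, and the 7 erythroid markers at 53.4 to 133 and 48.0 to 1138. Such shifts were not particular to 16 weeks. At 8 weeks 6 of 10 fibroblast, 3 of 10 endothelial and 4 of 9 smooth muscle and pericyte markers passed as higher. As lower passed 2 of 10 cardiomyocyte, 1 smooth muscle and pericyte and 1 of 7 erythroid markers. Of all genes tested 2.83% passed at 16 weeks and 8.21% at 8 weeks. None of these markers was at 0 in all libraries. In bulk tissue, more cells of a type and more RNA per cell cannot be told apart, and the part of these shifts in the ribosomal protein values was not tested.

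At 8 weeks no difference between KO and WT was called in the family, apart from Rpl3 in the altered fits given below. None of the 80 members passed in edgeR, against 8.21% of all genes tested (4.3% higher, 3.91% lower), and no member had groups without overlap, against 5.49% higher and 5.36% lower. At an unadjusted p under 0.05 in edgeR there were 3 members, against 3524 of 15173 genes. DESeq2, limma-voom and voom with quality weights each called 0 members, against 8.89%, 8.06% and 7.7% of all genes tested. The log2 fold changes were above 0 in 43 members and below 0 in 37, with a median of 0.004 and a range of -0.28 (Rpl24) to 0.24 (Rpl3). Rpl3 was again the member with the smallest adjusted p, at 32.4, 26.7, 30.02, 34.9 and 29.4 CPM in WT-8 and 37.2, 34.2, 41.3 and 31.7 CPM in KO-8 (SE 0.08, adjusted p = 0.0977). The groups overlapped. Rpl3l was at 76.8 ± 4.31 CPM in WT-8 and 76.7 ± 7.99 in KO-8 (log2 fold change 0.01, SE 0.07, adjusted p = 0.966). Next on the higher side came Rpl35 (0.18, adjusted p = 0.169), Rps26 (0.14, 0.214), Rpl38 (0.13, 0.276) and Rps2 (0.09, 0.353). On the lower side came Rpl27 (-0.16, 0.241), Rps19 (-0.14, 0.264), Rpl24 (-0.28, 0.288), Rpl10 (-0.13, 0.308), Rps27 (-0.13, 0.366) and Rps16 (-0.09, 0.389). The balance of signs moved with single libraries: 65 members were above 0 without KO-8 replicate 4, the library with the lowest summed share, and 24 without WT-8 replicate 5.

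The difference of the KO effect between the times was tested in a fit to all 19 libraries. No gene of 15503 passed in edgeR (0% called, 2000 at an unadjusted p under 0.05), and so no member did. Of the members 11 had an unadjusted p under 0.05. DESeq2 called 30 genes (0.194%) and 0 members, and voom with quality weights 527 genes (3.4%) and 3 members. The difference was above 0, higher at 16 weeks, in 71 of 80 members with a median of 0.23. It was 0.74 for Rps18 (SE 0.18, adjusted p = 0.266), 0.76 for Rpl3 (SE 0.28, 0.321), -0.87 for Rpl3l (SE 0.35, 0.337) and 0.88 for Rps14 (SE 0.38, 0.348), which had the highest value. The change in Rpl3 is therefore called at 16 weeks, but a difference from 8 weeks was not, except with voom quality weights (0.86, adjusted p = 0.0496) and without KO-16 replicate 1 (0.90, 0.0423). Rpl3l and Rps18 passed with voom quality weights too (adjusted p = 0.0135 and 0.031). With a library left out, their lowest adjusted p in edgeR was 0.0069 and 0.0218.

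The family was most uneven between the wild-type groups, which differed in time after induction and in 18S share. Of 80 members 59 passed, 51 lower and 8 higher in WT-16 than in WT-8, where 55.5% of all genes tested passed (28.5% lower, 27% higher). The median log2 fold change was -0.47 against -0.0007 over all genes, and it was -0.37 in the large and -0.72 in the small subunit. Among the 78 tested members reported by name, values reached from -2.87 in Rps14 to 0.63 in Rpl4. Proteins that enter the ribosome as single copies thus had messages that parted by more than 3 log2 units. The number of count files also separates these groups: the 16-week samples have 2 each and the 8-week samples 1. Time, whatever lies behind the number of files, and 18S share cannot be told apart here.

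Rps14, a protein of the small-subunit platform, fell furthest. It was at 73.4, 66.7, 64.4, 66.3 and 54.5 CPM in WT-8 and 5.82, 8.50, 12.3, 7.83 and 5.52 CPM in WT-16 (log2 fold change -2.87, SE 0.16, adjusted p = 8.52e-09). Rps18 was at 34.8 to 42.04 CPM in WT-8 and 9.43 to 14.6 in WT-16 (-1.59, SE 0.10, adjusted p = 3.04e-08), Rpl13 at 33.3 to 46.3 and 9.89 to 14.5 (-1.60, adjusted p = 4.25e-08), and Rps27 at 43.6 to 61.3 and 10.3 to 17.3 (-1.79, adjusted p = 5.12e-08). Rps19, mutated in Diamond-Blackfan anaemia, was at 29.4 to 36.0 and 7.84 to 13.3 CPM (-1.72, adjusted p = 7.82e-08). Rps29 was at 19.2 to 22.5 and 6.07 to 9.90 CPM (-1.39, adjusted p = 2.34e-07). In these 6 genes every WT-16 library lay below every WT-8 library, as in 39 of the 80 members and in 22.5% of all genes tested.

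The other direction held fewer genes. Rpl21 was at 78.6 to 86.2 CPM in WT-8 and at 120.3 to 132 CPM in WT-16, without overlap (log2 fold change 0.61, SE 0.06, adjusted p = 1.18e-06). Such separation on the higher side held in 5 members and in 18.6% of all genes tested. Rpl4 (0.63, adjusted p = 2.81e-06), Rps6, the substrate of the S6 kinases (0.41, 2.35e-04), the X-linked Rps4x (0.48, 5.77e-04), and Rpl23 (0.26, 0.0107) rose too. Rpl3 and Rpl3l were both lower, by -0.43 (SE 0.13, adjusted p = 0.0117) and -0.33 (SE 0.08, adjusted p = 0.00254).

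**Figure D4:**
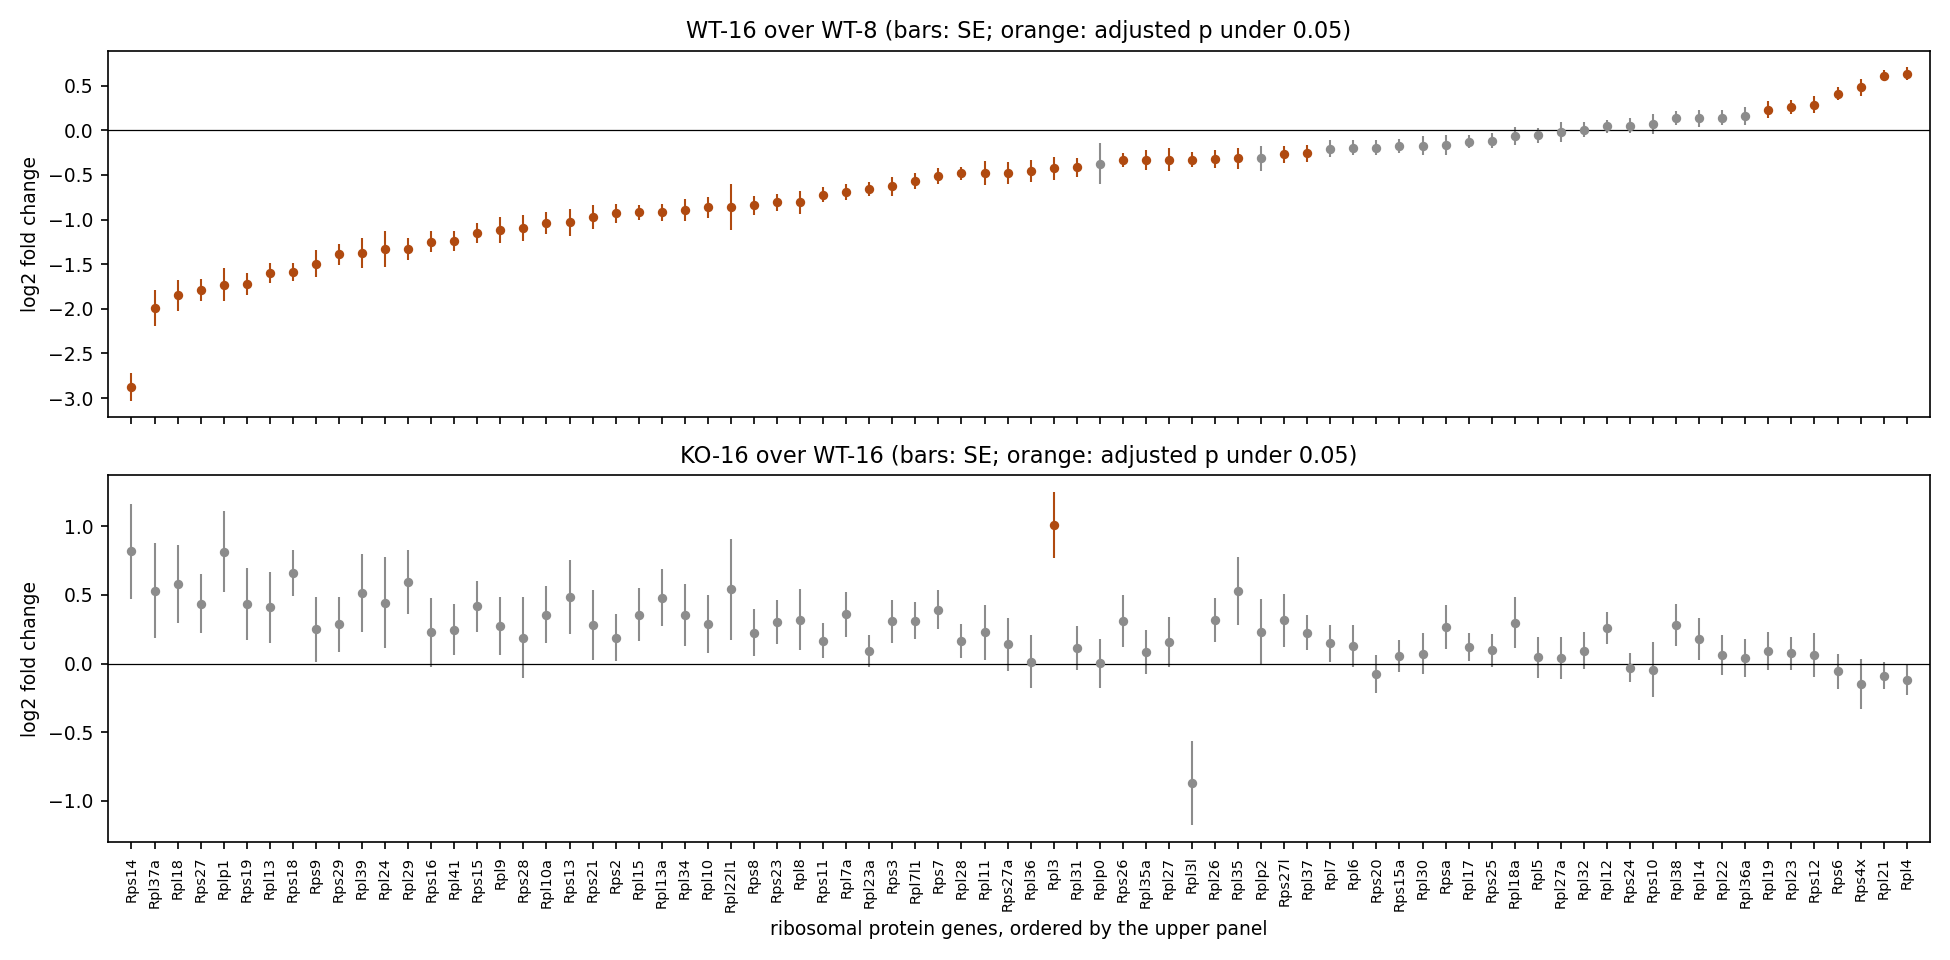
Log2 fold change with its SE for 78 of the 80 ribosomal protein genes tested, WT-16 over WT-8 (upper) and KO-16 over WT-16 (lower), in the order of the upper panel, with genes past the threshold in orange. The upper panel runs from -2.87 (Rps14) to 0.63 (Rpl4), and in the lower panel Rpl3 (1.01) and Rpl3l (-0.87) stand at the ends. Both panels use the WT-16 libraries.

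Within the 16-week libraries the slope on the 18S share, with the group in the model, was below 0 in 73 of 80 members. The median was -0.14 log2 units per 10 percentage points of 18S, against -0.005 over all genes. No member passed in edgeR, and 2 of 12597 genes did (0.0159%). At an unadjusted p under 0.05 there were 36 members and 1560 genes. DESeq2 and voom with quality weights each called 3 members, against 82 (0.651%) and 40 (0.318%) of all genes tested. The steepest was Rps14 (-0.48, SE 0.10, adjusted p = 0.229), and Rpl10 had the smallest adjusted p (-0.30, SE 0.05, adjusted p = 0.160). Rplp1 (-0.36, adjusted p = 0.298), Rps13 (-0.32, 0.312), Rps2 (-0.21, 0.313) and Rpl10a (-0.25, 0.313) came next. The members with slopes above 0 included Rps4x (0.15, adjusted p = 0.437), Rpl4 (0.06, 0.580) and Rpl21 (0.04, 0.697), which were higher in WT-16 than in WT-8, Rpl36a (0.04, 0.787), which did not pass there, and Rpl22l1 (0.11, 0.791) and Rpl3l (0.04, SE 0.15, 0.942), which were lower there. Rpl3 had a slope of -0.12 (SE 0.10, adjusted p = 0.624), which ran from -0.31 to -0.034 with 1 library left out and was -0.32 without the male libraries.

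In the other paralog pairs no member passed at 16 weeks. Rpl22 (49.2, 50.5, 53.4 and 55.6 CPM in WT-8, KO-8, WT-16 and KO-16) and its paralog Rpl22l1 (2.63, 2.35, 1.46 and 2.11 CPM) had 16-week log2 fold changes of 0.06 (adjusted p = 0.808) and 0.54 (SE 0.37, 0.365). Rps27 and Rps27l had 0.44 (adjusted p = 0.216) and 0.32 (0.318), and Rpl7 and Rpl7l1 0.15 (0.516) and 0.31 (0.168). Rpl39 had 0.52 (adjusted p = 0.272) and Rpl10 0.29 (0.401), while their paralogs Rpl39l and Rpl10l were near or at 0 counts. The identity of coding sequence within these pairs was 61.8% (Rpl7), 71.2% (Rpl22), 76.2% (Rps27), 84.7% (Rpl10) and 84.97% (Rpl39). Differences between the pairs were not tested.

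The stalk that recruits elongation factors to the large subunit is built from Rplp0, Rplp1 and Rplp2, and none of the 3 messages passed at 16 weeks. Rplp1 was at 20.2, 21.7, 35.7, 22.0 and 11.5 CPM in WT-16 and 35.4, 56.3, 52.6, 34.1 and 18.9 CPM in KO-16, with overlap (log2 fold change 0.81, SE 0.29, adjusted p = 0.116). Rplp2 had 0.23 (SE 0.24, adjusted p = 0.555). Rplp0 had 0.003 (SE 0.18, adjusted p = 0.995) and varied widely within WT-8, from 67.5 to 174 CPM. In WT-16 against WT-8, Rplp1 fell by 1.73 (SE 0.18, adjusted p = 1.64e-06), while Rplp0 (-0.37, SE 0.23, adjusted p = 0.178) and Rplp2 (-0.31, SE 0.14, adjusted p = 0.0673) did not pass. Rpsa, the small-subunit protein also known as the laminin receptor, had a mean of 98.9 ± 17.4 CPM (WT-16) and 118 ± 24.1 CPM (KO-16) (0.27, SE 0.16, adjusted p = 0.314).

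The lists of other genes that build or serve the ribosome held 2 that passed at 16 weeks, when 2.83% of all genes tested passed. Of 34 ribosome biogenesis genes 1 passed, Rrp12, a factor in maturation and export of both subunits, whose mean was 8.82 CPM in the WT and 19.2 in the KO (log2 fold change 1.13, SE 0.23, adjusted p = 0.0289). The median of that list was 0.14, with 23 above 0. None of 22 other messages with a known TOP motif passed (11 above and 11 below 0, median -0.014). Among these, Eef1a1 (0.49, adjusted p = 0.0809) and Eef2 (0.40, 0.132), the main elongation factors, had values above 0 and the histone chaperone Nap1l1 (-0.28, 0.105) a value below 0. None passed of 17 tested genes for transcription by RNA polymerases I and III (median 0.03), of 20 for control of translation by mTOR and Myc (median -0.09), of 24 initiation and elongation factors (median -0.04), or of 5 ribosomal proteins with other symbols (median -0.02). Of 77 mitochondrial ribosomal proteins tested 1 passed, lower, with 47 above 0 and a median of 0.12.

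At 8 weeks, when 8.21% of all genes tested passed, Rrp12 had passed too (0.54, SE 0.10, adjusted p = 0.00467), the 1 gene of 34 in that list. Of the TOP messages Eef2 passed (0.18, SE 0.05, adjusted p = 0.0417), the 1 gene of 22. In the polymerase list 3 of 18 passed: Polr3a, the largest subunit of polymerase III, was higher (0.38, adjusted p = 0.0017), and Taf1d (-0.30, 0.00561) and Maf1, the repressor of polymerase III (-0.18, 0.0308), were lower. Eif1 (-0.24, adjusted p = 0.035) and Eif5 (-0.21, 0.0385), which set start-codon choice, passed as lower among 24 factors, of which 22 were below 0. No gene of 21 in the mTOR and Myc list passed, and 5 of 77 mitochondrial ribosomal proteins did (4 higher, 1 lower).

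The genes with a profile most like that of Rpl3l over the 19 libraries were found by Pearson correlation of log2 CPM among 13157 genes with a mean of at least 1 CPM. They were Ces1d (r = 0.96), Acaa2 (0.96), Adamts7 (0.96), Cmss1 (0.95) and Crat (0.94). Acaa2 means were 362, 335, 325 and 146 CPM in WT-8, KO-8, WT-16 and KO-16. Rpl3 had r = -0.61 with Rpl3l over the same libraries. These libraries share their groups, depth and 18S share, and the values are a description.

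Length and base composition of the messages went with some of these values, here as rank correlations across genes, which are not independent replicates. Over the 80 members, Spearman's rho of the WT-16 against WT-8 log2 fold change was -0.31 with the GC content of the main transcript and 0.36 with its length. Over 12335 other protein-coding genes it was -0.62 and 0.28. For KO against WT at 16 weeks it was 0.26 with GC content and -0.30 with length in the members, and 0.32 and -0.15 in 11238 other genes. With the share of windows found in other genes, rho in the members was -0.03 for the wild-type comparison and 0.08 for the 16-week KO comparison. The members were 345 to 5179 bases long with 40.6 to 60.8% GC.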

How the data were processed

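Ventricular RNA of 19 libraries was analysed from 29 tables of raw read-pair counts per gene deposited by the authors. Per the file headers, pairs were counted by featureCounts 1.6.3 against Ensembl 96 genes (GRCm38), as reverse-stranded and by largest overlap. Per the submitters' processing notes, cutadapt 1.16, FastQC, STAR, RSEM and SAMtools were also used, with no role given. All 55536 genes matched GENCODE M21. The 2 files of each 16-week sample were summed. Their chi-square per gene was 1.34 to 3.15, against at least 6.31 between libraries of a group.

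KO was compared with WT at each time in a fit to the libraries of that time. The difference between times used all 19 libraries. WT-16 was compared with WT-8, and a slope on the 18S share with a term for the group was fitted at 16 weeks. Fits used edgeR 4.0.16 (quasi-likelihood, TMM factors, filterByExpr) in R 4.3.3, with Benjamini-Hochberg adjustment over all genes tested and a threshold of 0.05. The SE is the log2 fold change over the root of the F statistic. Alternatives used DESeq2 1.42.0 and limma 3.58.1. Other work used Python 3.11.15, numpy 2.4.6, pandas 2.3.3, scipy 1.17.1 and matplotlib 3.10.9. On simulated data the fits recovered 8.96%, 50.7% and 92.4% of 1.5-, 2- and 4-fold changes for KO against WT at 16 weeks (7 false of 108 calls), and 67.2%, 89.6% and 97% at 8 weeks (8 of 177). The changed genes were picked at random from all genes tested, and each gene was drawn independently of the others.

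Named genes were paralog pairs, Rplp0, Rplp1, Rplp2 and Rpsa, up to 6 members per direction with the smallest adjusted p and those with the extreme fold changes in each comparison, the 3 highest and lowest levels, up to 4 genes per list, and the 5 genes most like Rpl3l. The members, lists and rules were chosen with earlier results of these data known. Protein sequences were not analysed here. Of the members, 2 are counted but not reported here by name.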

Additional observations from a re-analysis of the deposited data

Results flagged for a closer look

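In groups of 4 or 5 libraries, a library was singled out where its gap to the nearest other library took up more of the group's range than Dixon's 95% critical value allows. This held in 7 of 168 groups tested, and chance gives about 5%. In WT-16, replicate 3 had the highest Rpl3 (31.1 CPM, others 17.5 to 20.7) and the highest Rps19 (13.3 CPM, others 7.84 to 8.99), and it had the least 18S of that group (6.88%). Replicate 1 of WT-16 had the highest Rpl3l (73.3 CPM, others 56.7 to 60.02), with the most 18S (39.1%). In KO-16, replicate 3 had the lowest Rpl22l1 (1.11 CPM, others 2.29 to 2.44). In KO-8, replicate 4 had the lowest Rps13 (24.4 CPM, others 28.7 to 29.5) and the lowest Rps19 (26.7 CPM, others 31.1 to 31.5). Rpl3 made up 38.4% of the counts of Rpl3 and Rpl3l in KO-8 replicate 3, against 29.6 to 30.5% in the other KO-8 libraries. The part of depth or 18S in these values was not tested.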

How the results depend on the processing

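No paired analysis was possible because the labels give the groups no shared replicate numbers. At 16 weeks 1 member passed for KO against WT. This count was 2 with upper-quartile factors (2.97% of all genes), with rRNA genes left out (2.95%) and with protein-coding genes alone (3.16%). DESeq2 gave 3 (9.26% of all genes), no filter 4 (3.56%) and voom quality weights 6 (20%). The fit to all 19 libraries gave 9 (8 higher, 1 lower, against 20.5% of all genes). The count was 0 with limma-voom (2.64% of all genes), without the male libraries (0.0756%), and with the 18S (0.222%) or the mitochondrial share (0.0714%) as a covariate. It ranged from 0 to 11 with 1 library left out, and the cause of these moves was not tested. At 8 weeks the count of 0 became 1 without a filter (5.56% of all genes). With a library left out it was 0 to 1, the 1 being without KO-8 replicate 4 (7.58%). For the difference between times 0 became 3 with voom quality weights (3.4% of all genes). With a library left out it was 0 to 3: 3 without KO-16 replicate 1 (3.95%) and 2 without KO-16 replicate 5 (0.735%). The slope on 18S called 0, but 2 without a filter (0.0688% of all genes), and 3 with DESeq2 (0.651%) and with voom quality weights (0.318%). In WT-16 against WT-8 the count of 59 stayed between 54 and 63, where 27.9% (no filter) to 58.6% (protein-coding genes alone) of all genes passed. All genes called at 16 weeks numbered 356, but 1166 with DESeq2, 2514 with voom quality weights, 28 and 9 with the 18S and mitochondrial covariates, 10 without the male libraries, and 29 to 1856 with 1 library left out.

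The summed share relative to WT-8 was 1.01 in KO-8, but 0.998 as TMM-scaled CPM, 0.729 in WT-16, but 0.38 as a share of all counts, and 0.855 in KO-16, but 0.614 as a share of all counts. Some values that had not passed changed sign. For KO against WT at 16 weeks, Rplp0 took -0.0052 (RLE and DESeq2), -0.0048 (voom), -0.0201 (protein-coding), -0.0029 (all libraries), -0.042 (earlier file), -0.076 (no male libraries), -0.15 and -0.27 (18S and mitochondrial covariates) and -0.087 (over 20% 18S). Rpl10 took -0.0058 (18S covariate) and -0.0405 (over 20% 18S), Rpl22 -0.042 and -0.095 (18S and mitochondrial covariates), Rpl7 -0.034 and Rplp2 -0.16 (mitochondrial covariate), Rps4x 0.038 (mitochondrial covariate) and 0.19 (over 20% 18S), and Rps6 0.036 (over 20% 18S). At 8 weeks Rpl3l took -0.0029 and Rpl7 -0.00064 in the fit to all libraries. For the difference Rpl22 took -0.0018 (voom quality weights), -0.0069 (protein-coding), -0.022 (no male libraries) and -0.083 (18S covariate), and Rps4x 0.0018 (18S covariate). On the 18S slope Rpl36a took -0.0071 (earlier file) and -0.00602 (no male libraries).
With 1 library left out at a time the sign also turned, for KO against WT at 16 weeks, Rpl22 from -0.0603 to 0.14, Rplp0 from -0.14 to 0.12, Rps6 from -0.13 to 0.037. It turned for KO against WT at 8 weeks, Rpl22 from -0.018 to 0.0996, Rpl39 from -0.12 to 0.18, Rpl3l from -0.042 to 0.069, Rpl7 from -0.037 to 0.071, Rplp1 from -0.0051 to 0.074, Rplp2 from -0.031 to 0.0896, Rps4x from -0.099 to 0.032. It turned for the difference of the KO effect between 16 and 8 weeks, Rpl22 from -0.104 to 0.0999. It turned for the slope on the 18S share at 16 weeks, Rpl3l from -0.026 to 0.19, Rplp2 from -0.22 to 0.028.
The 16-week libraries limit what can be seen: simulated 1.5-fold changes for KO against WT were recovered in 8.96% of genes there and in 67.2% at 8 weeks, and Rpl3 rested on 69 to 676 counts per WT-16 library. These rates are for genes picked at random and simulated independently, and were not measured for the members. Levels per kb depend on length, as for Rpl3 in WT-8 (9.67, 22.7 or 163 CPM per kb), a comparison added after the data were seen.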
